A study of Mus musculus with 12 samples.

Results

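Matrix metalloproteinases (Mmp) and the tissue inhibitors of metalloproteinases (Timp) were followed in mouse hearts that express a mutant IDH2, the mitochondrial isocitrate dehydrogenase. The genes were taken as the 4 Timp genes and 6 metalloproteinase genes Mmp2, Mmp3, Mmp9, Mmp14, Mmp15 and Mmp19, each read through a probe set that the platform's annotation assigns to that gene alone. Of these 10 genes, 9 were measured among 19937 genes in all. Mmp15 is named only. Each of the 9 had 1 probe set.

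Metalloproteinases are zinc-dependent enzymes that cut collagens and other proteins of the extracellular matrix. Most are secreted as inactive precursors, a few are anchored in the cell membrane, and the Timp proteins block them by binding their active site. In the heart they are made mainly by fibroblasts, inflammatory cells and endothelium, and they are known for their part in the remodelling of the matrix after injury or overload.

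Total RNA was taken from 12 heart samples, 4 control, 4 IDH2 R140Q mutant and 4 IDH2 R172K mutant, and read on Affymetrix arrays. All mice carried a mixture of the strains C57BL/6, 129/sv and Balb/c. Mutant mice received 4-hydroxytamoxifen, 2 mg on 3 days at 5 weeks of age, per the labels' protocols. The sources used here do not give what control mice received, the driver of the mutant gene, the age at dissection or the sex. In each contrast with control the drug therefore cannot be told apart from the mutation, and both contrasts share the 4 control arrays. Nothing says that replicates are separate animals, so a p-value measures only how far these 12 samples spread, which may be technical.

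Levels are log2 of the intensity that the authors' RMA processing gave, and a difference of 1 on this scale is a 2-fold change. Each difference is given with its moderated standard error (SE). A gene was called changed at an adjusted p under 0.05 (limma, Benjamini-Hochberg over all 19937 genes). Array medians ran from 74.8 to 78.0 intensity units before the logarithm. Idh2 differed from control by -0.30 in R140Q and -0.36 in R172K hearts, and neither difference passed (limma adjusted p = 0.301 and 0.109). The labels do not say whether its probe set also detects the mutant copy. Cardiomyocyte markers were bright in every array, at a summed intensity of 57334 to 79605 over 8 genes. Lung epithelium markers summed to 5025 in R140Q replicate 4 against 233 to 300 in the other 11 arrays, and atrial markers to 29219 in control replicate 3 against 5651 to 6469 in the other 3 control arrays. In heart tissue, more cells of a type cannot be told apart from more RNA per cell.

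In R172K hearts 4 of the 9 genes rose: the inhibitor Timp1, the membrane-bound protease Mmp14, the gelatinase Mmp2 and the protease Mmp19. None of the 9 fell, while 13.0% of all genes changed in this contrast and 6.23% rose. In R140Q hearts none of the 9 was called (limma, adjusted p under 0.05), against 2.20% of all genes, and none had an unadjusted p under 0.05, against 17.0% of all genes. Timp2, Timp3, Timp4 and Mmp9 were not called in any of the 3 contrasts.

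**Figure D1:**
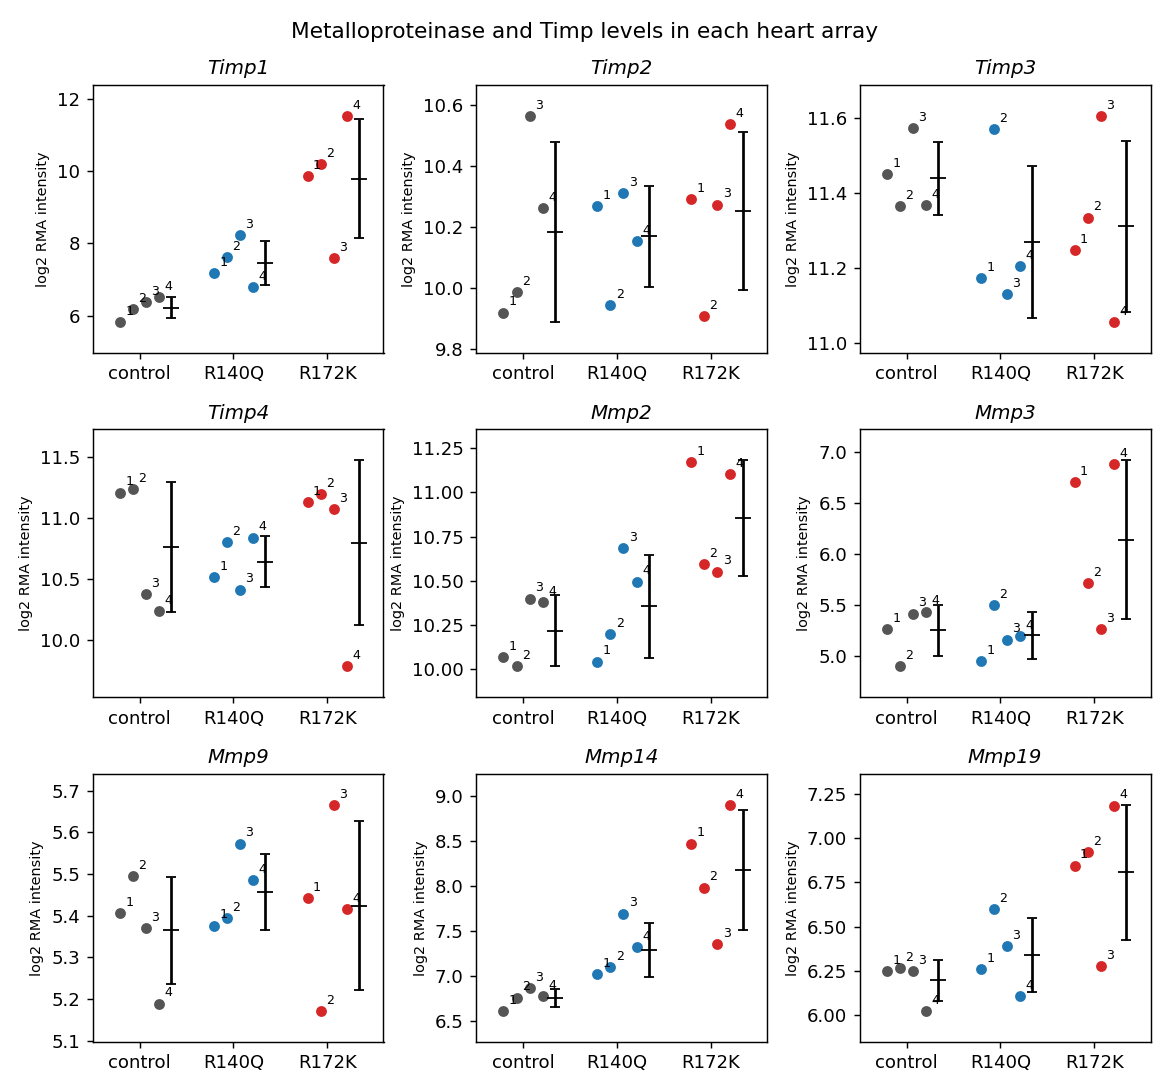
Log2 RMA intensity of the 9 measured genes in each array (y axis, a scale of its own per gene) for control, R140Q and R172K hearts; points carry the replicate number and bars are the mean ± SD of 4 arrays. Timp1 and Mmp14 lie above all control arrays in every mutant array, and R172K replicate 3 is the lowest of its group for Timp1, Mmp14, Mmp2, Mmp3 and Mmp19.

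Among the inhibitors, Timp1 showed the largest difference of the 9 genes in all 3 contrasts. Timp1 is the inducible member of the family, a secreted inhibitor that also acts as a growth factor for some cells. Its log2 intensity was 5.83, 6.17, 6.36 and 6.50 in control replicates 1 to 4. In R140Q hearts it was 7.18, 7.62, 8.23 and 6.79. In R172K hearts it was 9.86, 10.18, 7.59 and 11.53. Every mutant array thus lay above every control array, and R172K replicate 3 fell within the range of the R140Q hearts. Timp1 rose by 3.57 ± 0.62 in R172K against control (11.9-fold, limma adjusted p = 0.00442), with a 95% interval of the difference from 2.24 to 4.91. The R140Q difference of 1.24 ± 0.62 (2.36-fold) had an interval from -0.09 to 2.57 and did not pass (limma adjusted p = 0.333). Fitted on the control and R140Q arrays alone, so that the spread among R172K hearts no longer entered, the same difference passed (limma adjusted p = 0.0283).

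The other inhibitors showed no such difference. Timp2, which besides blocking proteases helps Mmp14 to activate the Mmp2 precursor, had a mean level of 10.18 ± 0.29 (SD, n = 4) in the control group, 10.17 ± 0.16 among R140Q arrays and 10.25 ± 0.26 among R172K arrays. Timp3, the member that binds to the matrix, lay at 11.44 ± 0.10, 11.27 ± 0.20 and 11.31 ± 0.23. For R172K against control, the 95% interval of the difference was -0.26 to 0.40 for Timp2 and -0.39 to 0.13 for Timp3, both well short of the Timp1 difference. Their groups overlapped in all 3 contrasts.

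Timp4, an inhibitor known for its high expression in the heart, varied within groups more than between them. It was at 11.21, 11.24, 10.38 and 10.24 in control replicates 1 to 4. In R140Q hearts it was at 10.52, 10.80, 10.41 and 10.84. In R172K hearts it was at 11.13, 11.20, 11.08 and 9.78. Replicate 4, the R172K array with the highest Timp1, thus had the lowest Timp4 of all 12. The R172K difference from control of 0.03 ± 0.31 became 0.37 without that array, and neither passed (limma adjusted p = 0.969 and 0.370). Cardiomyocyte markers summed to 57334 in that array and to between 66928 and 79605 in the other 11. Their part in its Timp4 level was not tested.

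Among the proteases, Mmp14 showed the largest difference from control in both mutants. Mmp14 is a membrane-type metalloproteinase that cuts fibrillar collagen at the cell surface and activates the precursor of Mmp2. It was at 6.61, 6.76, 6.86 and 6.78 in control replicates 1 to 4. In R140Q hearts it was at 7.02, 7.10, 7.69 and 7.32, and in R172K hearts at 8.47, 7.98, 7.36 and 8.91. The mutant groups both lay wholly above control, and only R172K replicate 3 overlapped the R140Q range. Mmp14 rose by 1.43 ± 0.26 in R172K hearts (2.69-fold, limma adjusted p = 0.00544). The R140Q difference of 0.53 ± 0.26 (1.44-fold, 95% interval -0.03 to 1.09) did not pass (limma adjusted p = 0.326). With the control and R140Q arrays alone it passed (limma adjusted p = 0.0446). In that fit of the 8 arrays Timp1 and Mmp14 were 2 of 9 genes called, against 6.73% of all genes. Of the 9 genes these 2 were also the ones whose R140Q and control arrays did not overlap, both higher in R140Q, while 7.79% of all genes were higher without overlap. In the fit of all groups but without R140Q replicate 4, the array with high lung epithelium markers, the R140Q difference was 1.46 for Timp1 and 0.52 for Mmp14 (limma adjusted p = 0.320 and 0.446).

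Mmp2, a gelatinase that cuts denatured collagen and basement membrane collagen, stood at 10.07, 10.02, 10.40 and 10.38 in control replicates 1 to 4. It stood at 10.04, 10.20, 10.68 and 10.50 in R140Q hearts and at 11.17, 10.59, 10.55 and 11.10 in R172K hearts. The R172K arrays lay above all control arrays, by a narrow margin for replicates 2 and 3. Mmp2 rose by 0.64 ± 0.17 in R172K hearts (1.55-fold, limma adjusted p = 0.0299). The call was lost without control replicate 1 (limma adjusted p = 0.0836), control replicate 2 (0.0877), R172K replicate 1 (0.0933) or R172K replicate 4 (0.0741), with a difference of 0.53 to 0.74 over the 12 fits that left out 1 array. In R140Q hearts the difference was 0.14 ± 0.17 (limma adjusted p = 0.768).

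Mmp19, a secreted protease of basement membrane proteins, stood at 6.25, 6.27, 6.25 and 6.02 in control replicates 1 to 4. It stood at 6.26, 6.60, 6.39 and 6.11 in R140Q hearts and at 6.84, 6.92, 6.28 and 7.18 in R172K hearts. R172K replicate 3 exceeded the highest control array by little. Mmp19 rose by 0.61 ± 0.16 in R172K hearts (1.52-fold, limma adjusted p = 0.0281). Without control replicates 1, 2, 3 or 4 the limma adjusted p was 0.0588, 0.0581, 0.0520 and 0.0759, and without R172K replicates 1, 2 or 4 it was 0.0747, 0.0730 and 0.0661. With the control and R172K arrays alone it was 0.0539. The R140Q difference was 0.14 ± 0.16 (limma adjusted p = 0.741).

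Mmp3, stromelysin 1, cuts many matrix proteins and activates other metalloproteinase precursors. Its arrays were dim, at 5.26, 4.90, 5.42 and 5.44 in control and 4.95, 5.50, 5.16 and 5.20 in R140Q replicates 1 to 4. In R172K hearts they were at 6.70, 5.71, 5.26 and 6.88. Replicates 1 and 4 stood well above control and replicate 3 within it. The R172K difference of 0.89 ± 0.30 did not pass (limma adjusted p = 0.0688), and without R172K replicate 3 it was 1.18 (limma adjusted p = 0.00539), which made Mmp3 one of 5 genes called against 20.9% of all genes. That replicate was the lowest of its group, and Mmp3 passed in only this 1 of 12 fits without 1 array (highest limma adjusted p = 0.189). Mmp9, the gelatinase of neutrophils and macrophages, was likewise dim. Its mean was 5.36 ± 0.13 (SD, n = 4) for control, 5.46 ± 0.09 for R140Q and 5.42 ± 0.20 for R172K arrays, with a 95% interval of the R172K difference from -0.16 to 0.28. Mmp3, Mmp9 and Mmp19 had mean levels below 6.69, the median of all genes, and no detection calls are used, so how far their low values stand above background is not known.

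**Figure D2:**
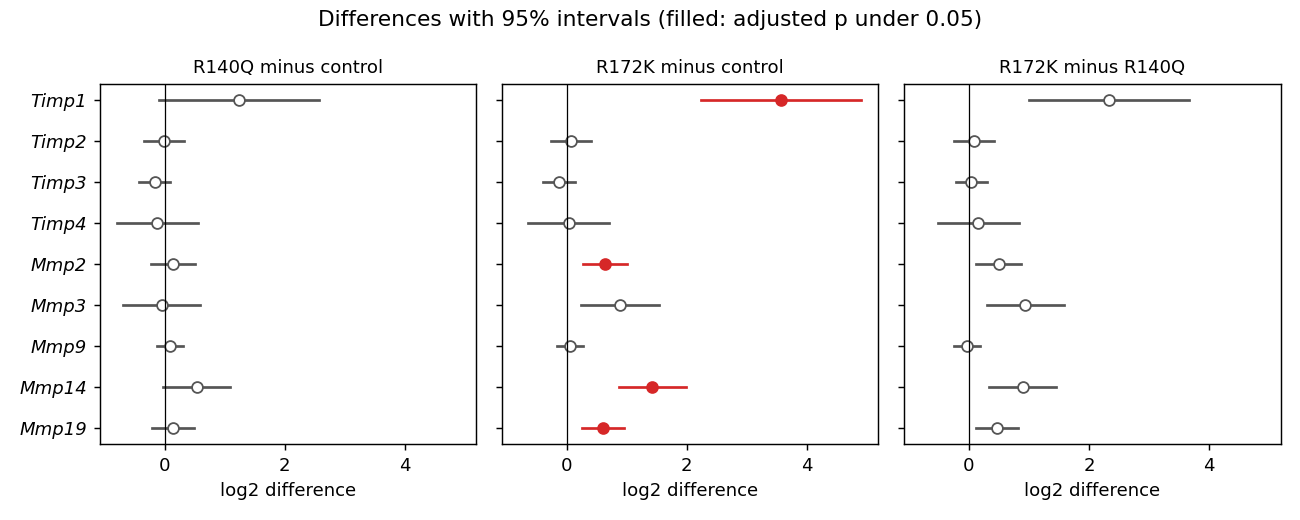
Log2 difference of each gene (point) with its 95% interval from limma (line) in the 3 contrasts; filled red points have an adjusted p under 0.05. Timp1, Mmp14, Mmp2 and Mmp19 are filled for R172K minus control, and no gene is filled in the other 2 contrasts.

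The difference between the mutants was tested directly. None of the 9 genes passed in R172K against R140Q hearts (limma, adjusted p under 0.05), against 1.48% of all genes. The 2 groups overlapped for each of the 9, while 7.72% of all genes did not overlap. Timp1 was 2.33 ± 0.62 higher in R172K (5.04-fold, limma adjusted p = 0.0792), Mmp3 0.94 ± 0.30 (adjusted p = 0.133), Mmp14 0.89 ± 0.26 (adjusted p = 0.102), Mmp2 0.50 ± 0.17 (adjusted p = 0.165) and Mmp19 0.47 ± 0.16 (adjusted p = 0.167). These 5 genes had an unadjusted p under 0.05, as did 16.3% of all genes. R172K replicate 3 was the array in which these differences were smallest. Without it Timp1 (3.07, limma adjusted p = 0.00137), Mmp14 (1.17, adjusted p = 0.00533), Mmp19 (0.64, adjusted p = 0.00803) and Mmp3 (1.23, adjusted p = 0.0113) were called, 4 of 9 genes against 7.91% of all genes. The array was picked out because these genes were lowest in it, so larger differences without it follow from that choice. Each of the 4 genes passed in only 1 of the 12 fits that left out 1 array. Their highest limma adjusted p over these fits was 0.206 for Timp1, 0.270 for Mmp14, 0.350 for Mmp19 and 0.338 for Mmp3. The summed level of atrial markers, in which the bright Nppa weighs heavily, was also higher in all R172K than in all R140Q arrays. Within the R172K group it was highest in replicate 3 (21176, against 14901, 11048 and 14115 in replicates 1, 2 and 4). Markers of epicardium and mesothelium summed to 1093 in R172K replicate 3, the highest of the 12 arrays. The part of these markers in the differences between the mutants was not tested. For the 4 remaining genes the difference between the mutants had 95% intervals of -0.25 to 0.42 (Timp2), -0.22 to 0.30 (Timp3), -0.52 to 0.83 (Timp4) and -0.25 to 0.18 (Mmp9).

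In R172K against control hearts, the 4 genes called were also the 4 whose arrays did not overlap, all higher, while 7.47% of all genes were higher without overlap. The order of the R172K hearts was shared only in part. Replicate 3 was the lowest for all 4 and for Mmp3. Replicate 4 was the highest for Timp1, Mmp14, Mmp19 and Mmp3, while for Mmp2 replicate 1 was the highest (11.17, against 11.10 in replicate 4). Without replicate 4 the R172K difference fell to 2.99 for Timp1 and 1.18 for Mmp14, and without replicate 3 it was 4.31 and 1.70. Both genes passed whichever of the 12 arrays was left out (highest limma adjusted p = 0.0168 and 0.0230).

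**Figure D3:**
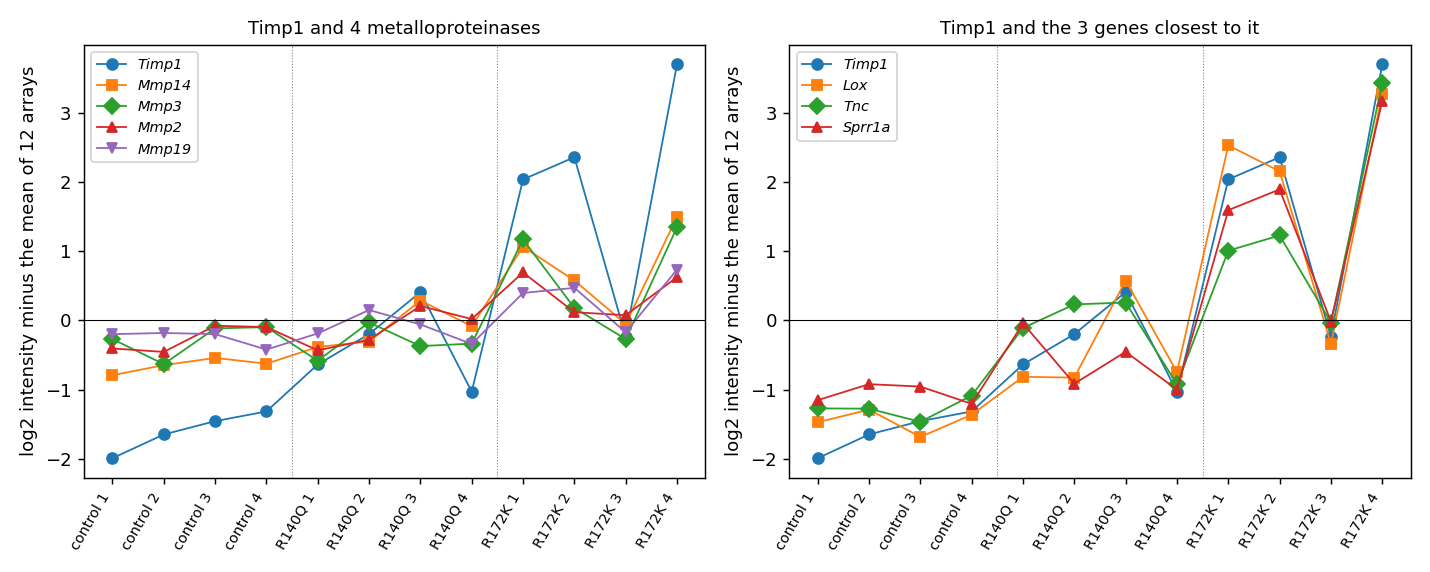
Log2 intensity minus each gene's mean over the 12 arrays (y axis) for each array (x axis); lines only join the points of a gene, since replicates have no order. Left, Timp1 and 4 metalloproteinases; right, Timp1 and the 3 genes closest to it, Lox, Tnc and Sprr1a, which all have a dip at R172K replicate 3 and a maximum at R172K replicate 4.

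The genes closest to each called gene were found by the root mean square difference between centred log2 levels over the 12 arrays. For Timp1, with an SD of 1.80 over the arrays, these were the collagen cross-linking enzyme Lox (0.35), tenascin C (Tnc, 0.55) and the cornified envelope gene Sprr1a (0.57). Sprr1a ranged from 5.95 to 6.23 among control and from 6.15 to 7.11 among R140Q arrays, and stood at 8.75, 9.05, 7.14 and 10.33 in R172K replicates 1 to 4, so its R172K hearts kept the order of the Timp1 values. For Mmp14, with an SD of 0.73, the closest were the thrombin receptor F2r (0.13), the EGF receptor ligand Ereg (0.16) and the fibrillar collagen Col5a2 (0.17). For Mmp2 (SD 0.38) they were Egfr (0.15), Rab23 (0.15) and Nupr1 (0.16), and for Mmp19 (SD 0.36) Slc35d2 (0.11), Ptpn2 (0.11) and Nucb2 (0.11). These distances describe the 12 arrays and carry no test.

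The promoters of the 2 genes with the largest differences are shown with that of Timp4, a family member that was not called, so that their letters can be compared. RefSeq's promoter table of the build GRCm38.p6 held 7 of the 10 genes, and each entry runs from 250 bases before to 50 bases after the gene's start. Timp1 is at chrX:20869916-20870215 (+ strand), Mmp14 at chr14:54431348-54431647 (+ strand) and Timp4 at chr6:115252156-115252455 (- strand). Capitals mark matches to the 5 motifs named after the sequences.
Timp1: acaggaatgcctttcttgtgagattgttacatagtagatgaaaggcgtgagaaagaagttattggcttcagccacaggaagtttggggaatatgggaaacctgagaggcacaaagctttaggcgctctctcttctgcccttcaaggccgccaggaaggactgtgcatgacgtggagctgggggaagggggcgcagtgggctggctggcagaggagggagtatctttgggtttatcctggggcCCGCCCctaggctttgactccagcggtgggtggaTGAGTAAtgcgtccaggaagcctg
Mmp14: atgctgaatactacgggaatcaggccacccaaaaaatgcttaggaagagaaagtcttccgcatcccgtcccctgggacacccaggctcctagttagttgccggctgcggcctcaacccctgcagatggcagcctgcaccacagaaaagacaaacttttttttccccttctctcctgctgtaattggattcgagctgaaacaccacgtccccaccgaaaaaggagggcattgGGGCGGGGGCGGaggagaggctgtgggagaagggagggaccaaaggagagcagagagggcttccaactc
Timp4: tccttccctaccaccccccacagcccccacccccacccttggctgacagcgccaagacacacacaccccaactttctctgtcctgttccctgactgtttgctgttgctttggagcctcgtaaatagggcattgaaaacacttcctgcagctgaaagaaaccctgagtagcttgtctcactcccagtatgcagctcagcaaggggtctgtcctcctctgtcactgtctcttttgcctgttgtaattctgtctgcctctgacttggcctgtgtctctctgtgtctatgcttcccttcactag

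Both strands were searched for TGAGTCA and TGAGTAA, forms of the AP-1 site, for the STAT motif TTCNNNGAA, for the GC box GGGCGG and for TATAAA. Timp1 held TGAGTAA at 27 to 33 bases after the start, a motif found in 2.68% of the 32851 promoters, and 1 GC box, found in 35.7%. TGAGTAA was chosen after the Timp1 promoter had been read, so its match there was known beforehand and its share is no measure of rarity. Mmp14 held 2 adjoining GC boxes and no other of these motifs. Timp4 held none of the 5. Mmp3 held TGAGTCA (5.20% of promoters) and TATAAA (13.6%), while Timp2 and Timp3 held GC boxes only, and TTCNNNGAA, found in 8.30% of promoters, was in none of the 6 promoters of measured genes. A match is only a run of letters, and none of these arrays measured binding.

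Of the wider metalloproteinase family, none of 17 other Mmp genes was called in R140Q hearts (limma; 2.20% of all genes were), where 1 had an unadjusted p under 0.05 (17.0% of all genes did), and in R172K hearts only Mmp12, the macrophage elastase, rose (0.62 ± 0.14, limma adjusted p = 0.0151), 1 of 17 against 13.0% of all genes called. Counts this small in 17 genes are near those shares. Their median difference was 0.00 in R140Q and 0.05 in R172K hearts, beside 0.00 and -0.00 over all genes. Mmp12 lay at 5.43 to 5.71 in control and at 5.94, 6.40, 5.90 and 6.52 in R172K hearts, without overlap. It is also the only one called among the 9 other metalloproteinase genes that share the chromosome of Mmp3.

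Of 25 Adam and Adamts genes, which code for related metalloproteinases that shed surface proteins or cut proteoglycans, 4 rose and 1 fell in R172K hearts, and 1 rose and 1 fell in R140Q hearts. Over all genes 13.0% were called in the R172K contrast and 2.20% in the R140Q contrast. Adamts9 rose by 1.03 ± 0.12 in R140Q (2.04-fold, limma adjusted p = 0.00394) and by 0.77 ± 0.12 in R172K hearts (1.71-fold, adjusted p = 0.00315). It was the one of these genes that was called higher in both mutants, and both calls passed whichever array was left out. In R172K hearts Adamts12 (0.60), Adamts4 (0.56) and Adam8 (0.45) also rose. The Adam8 call (limma adjusted p = 0.0471) ended when control 2, 3 or 4, R140Q 1, 3 or 4, or R172K 1, 2 or 4 was left out (adjusted p up to 0.134). Adamts7 fell by 0.70 in R172K hearts (adjusted p = 0.00842) and by 0.59 in R140Q hearts (adjusted p = 0.0483). Leaving out any of the 4 control arrays, R140Q 1, 3 or 4, or R172K 1 or 2 ended the R140Q call (adjusted p up to 0.142).

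Of 22 genes for activators and further inhibitors of matrix proteases, 4 rose and 1 fell in R172K hearts, with a median difference of 0.18, while 6.23% of all genes rose and 13.0% were called. Tissue plasminogen activator (Plat), which generates the protease plasmin, rose by 0.81 ± 0.11 (limma adjusted p = 0.00193). Plat was at 7.09 to 7.29 in control, 7.49 to 7.63 in R140Q and 7.64 to 8.29 in R172K hearts. The 3 groups thus did not overlap, but the 2 mutant groups nearly touched. Neither the R140Q difference of 0.40 nor the difference of 0.41 between the mutants passed (limma adjusted p = 0.0880 and 0.0892). Of all genes, 7.79% in R140Q and 7.47% in R172K hearts were higher than control without overlap, and 7.72% did not overlap between the mutants. The urokinase receptor gene Plaur (0.63), the hyaluronan receptor Cd44 (1.02) and the thrombospondin Thbs1 (2.37) rose too, and the proprotein convertase Pcsk6 fell by 0.64. Only the Plat call of these 5 passed whichever array was left out. Over the 12 such fits the highest adjusted p was 0.0731 for Plaur, 0.0537 for Cd44, 0.124 for Thbs1 and 0.108 for Pcsk6, and leaving out control 1 or R172K 1 ended all 4 calls. Leaving out control 2 also ended the Cd44 call. The Plaur call further ended without control 2, 3 or 4, or R172K 2 or 4. The Thbs1 call further ended when control 2, control 3, R140Q 1, R140Q 3, R172K 2 or R172K 4 was removed. Removing control 3 or 4, R140Q replicates 1, 3 or 4, or R172K replicates 2 or 4 ended the Pcsk6 call. Thbs2, whose product binds Mmp2 and helps to clear it, fell by 0.55 in R140Q hearts (adjusted p = 0.0481) and was 0.74 ± 0.13 higher in R172K than in R140Q hearts (adjusted p = 0.0277). In each of these contrasts it was the only 1 of the 22 genes called. Over all genes 2.20% were called in R140Q hearts and 1.48% between the mutants. Leaving out any control or R140Q array, or R172K 1 or 2, ended the R140Q call (adjusted p up to 0.137). The call between the mutants ended without R140Q 1, 3 or 4, or R172K 1 or 2 (adjusted p up to 0.0998).

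Of 24 genes that are known to induce metalloproteinase or Timp genes, or to carry such signals, 5 rose and none fell in R172K hearts, and none was called in R140Q hearts (limma), where 10 had an unadjusted p under 0.05. Beside these counts, 6.23% of all genes rose in R172K hearts, and in R140Q hearts 2.20% were called and 17.0% had an unadjusted p under 0.05. Those that rose were Tgfb1 (0.74 ± 0.17, limma adjusted p = 0.0142), Stat3 (0.43, adjusted p = 0.0165), Tgfb2 (1.13, adjusted p = 0.0215), the AP-1 gene Junb (0.45, adjusted p = 0.0313) and the oncostatin M receptor Osmr (0.72, adjusted p = 0.0348). The Tgfb1 and Stat3 calls passed whichever array was left out. The highest adjusted p over these fits was 0.0670 for Tgfb2, 0.0925 for Junb and 0.0838 for Osmr, and each of the 3 lost its call without control 1, control 2 or R172K 1. Tgfb2 also lost it without control 4, Junb without control 3 or R172K 2 or 4, and Osmr without control 3 or 4 or R172K 2 or 4.

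Matrix proteins that metalloproteinases cut were described in the same way. Of 21 matrix substrates, 14 rose and none fell in R172K hearts, with a median difference of 0.88, and 2 rose in R140Q hearts, with a median of 0.57. Over all genes 6.23% rose in R172K hearts, 2.20% were called in R140Q hearts, and the medians were -0.00 and 0.00. The 2 that rose in both were the basement membrane collagens Col4a1 (0.93 in R140Q and 0.99 in R172K) and Col4a2 (0.91 and 1.01). In R172K hearts the smallest p after these belonged to tenascin C (Tnc, 2.69 ± 0.54, limma adjusted p = 0.00871) and periostin (Postn, 2.68 ± 0.56, adjusted p = 0.00968). Of the 14 calls, 5 passed whichever array was left out, namely Col4a1, Col4a2, Col1a1, Tnc and Postn, and the count of calls ran from 6 to 18 over the 12 fits.

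**Figure D4:**
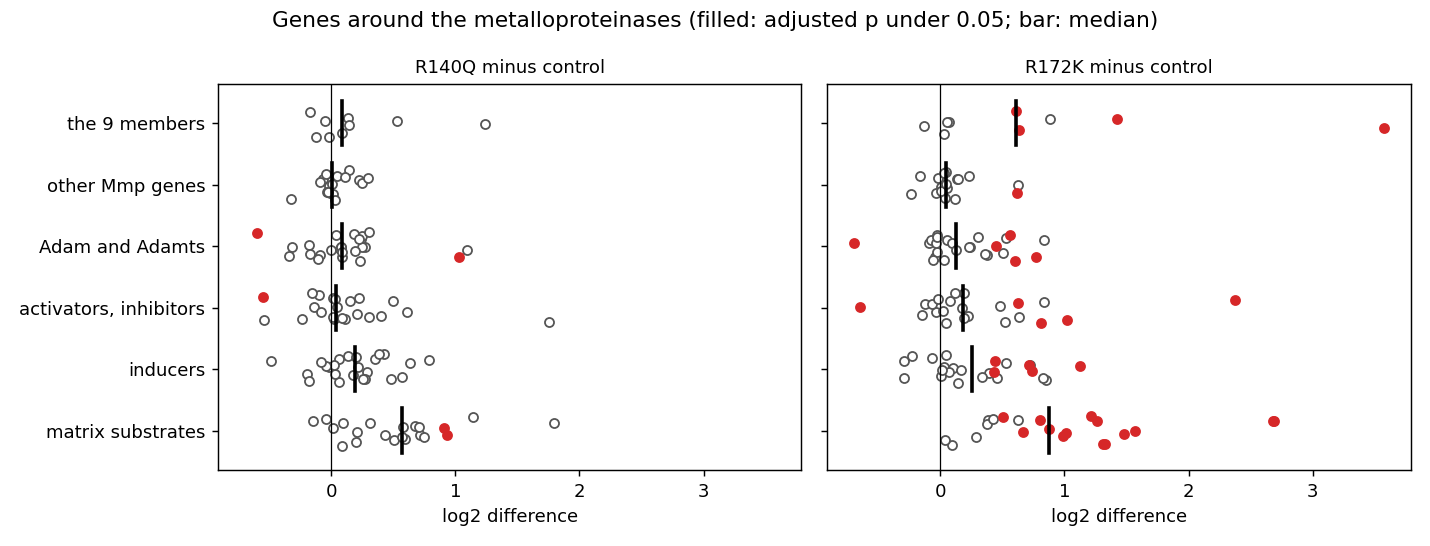
Log2 difference (x axis) of each gene in the 9 measured genes and 5 related lists (rows) for R140Q and R172K against control; filled red points have an adjusted p under 0.05 and the black bar is the list's median. In R172K 14 of 21 matrix substrates are filled, in R140Q 2 of them and 2 of 25 Adam and Adamts genes, and the other Mmp genes have medians of 0.05 and 0.00.

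Markers of the cell types that make these proteins were set beside the results. Of all 19937 genes, 13.0% were called and 6.23% rose in R172K hearts, and 5302 had an unadjusted p under 0.05. In R140Q hearts 2.20% were called and 17.0% had an unadjusted p under 0.05. Between the mutants 1.48% were called and 7.72% did not overlap. Of 8 activated fibroblast markers, 3 rose in R172K hearts (Postn, Cilp and Col8a1) and none in R140Q hearts. The other 5 were not called, and Acta2 and Comp had lower means in R172K (10.35 and 6.64) than in control hearts (10.86 and 6.79). The summed intensity of the 8 markers was 2999 to 3672 in control, 4028 to 8742 in R140Q, and 8342, 7026, 4541 and 14568 in R172K replicates 1 to 4. As for Timp1 and Mmp14, replicate 3 was thus the lowest and replicate 4 the highest of the R172K hearts. The sum weighs bright markers most, and Postn was the brightest of the 8 in R172K replicates 1, 2 and 4 (12.07, 11.79 and 12.89). Of 8 resting fibroblast markers 1 rose and 1 fell in R172K hearts, with sums of 11522 to 15899 in control and 12218 to 14620 in R172K hearts. None of 9 macrophage markers was called in R172K hearts (limma), with 2 at an unadjusted p under 0.05. Their sum was 2909 to 4349 in control, 3556 to 4210 in R140Q and 3034 to 7948 in R172K hearts, with the lowest of the R172K group in replicate 3 and the highest in replicate 4. None of 7 neutrophil markers was called in either mutant (limma), and their sum stayed between 198 and 292 in all 12 arrays. In R172K hearts 1 of them had an unadjusted p under 0.05. For macrophage and neutrophil markers these unadjusted counts did not exceed the share of all genes. Of 8 endothelial markers 3 rose in R140Q and 2 in R172K hearts, and none fell. Their sum was 7757 to 8191 in control, 9925 to 10432 in R140Q and 8673 to 10098 in R172K hearts, so both mutant groups lay above control. The same held for smooth muscle and pericyte markers, with sums of 6392 to 6810, 7230 to 8484 and 7781 to 8209. Of these 7 markers 2 rose in R172K hearts, where 4 had a positive difference, and none was called in R140Q hearts (limma). Of 6 epicardium and mesothelium markers 1 rose in R172K against control hearts. Against R140Q hearts 1 rose and 3 did not overlap. Of 8 cardiomyocyte markers 5 fell in R172K hearts and none in R140Q hearts, and the sums of both mutant groups lay below the control range of 74736 to 79605. Actn2 went the other way. It was not called, but every R172K array (13.01 to 13.29) lay above every control array (12.82 to 12.99). Atrial markers summed to 11048 to 21176 in R172K and 1081 to 10192 in R140Q arrays, without overlap, and the R172K sums also lay above 3 of the 4 control arrays. Nppa was the brightest of the 7 markers in every array except R140Q replicate 2 (7.85, against 12.74 to 13.20 in the other R140Q arrays). Myl7 ran from 7.43 to 11.36 in R172K and from 5.23 to 6.04 in R140Q arrays. The R172K range of Myl7 lay within that of control (6.18 to 12.49). Of the 7 atrial markers 1 was called, higher, in R172K against R140Q hearts, and 4 did not overlap. None was called against control in either mutant (limma), with 4 at an unadjusted p under 0.05 in R140Q and 0 in R172K. The part of these cell types in the Timp1, Mmp14, Mmp2, Mmp19 and Mmp12 differences was not tested.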

How the data were processed

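RNA from 12 mouse heart samples, 4 in each of 3 groups, was hybridised to Affymetrix Gene 1.0 ST arrays. The deposited intensities are values that the authors made with RMA, which subtracts background, equalises the arrays by quantiles and summarises the probes of a set, per the submitters' processing notes. No build or software version is named there. The table held 34760 probe sets on a linear scale, where a logarithmic one had been planned for, and log2 was taken without a pseudocount because all values exceeded 0. Since RMA makes array distributions alike, a shift shared by most genes would not be visible, and array number rather than depth limits precision.

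Probe sets with a single symbol in the platform's annotation (21640 of them; 1321 had several and 11799 were not listed) gave 19937 genes. For 954 genes with several probe sets, the one with the highest mean was kept. Contrasts between groups came from limma 3.58.1 in R 4.3.3 on all 12 arrays (lmFit and eBayes, 9 residual degrees of freedom, two-sided), with Benjamini-Hochberg adjustment over all genes. The fit was tested on simulated data. Groups followed the labels. All 9 measured genes were named, and up to 4 genes with the lowest p in each related list. Adam8, Osmr and Col1a1 fell outside this and were chosen after their values were seen. So was the R172K result of Thbs1, which was among the 4 only in the R140Q contrast. The single cell type markers were also named outside this rule. The 3 genes with the most similar levels were named for each of the 4 genes called. The genes and lists were chosen with earlier results of these data known, and the motif TGAGTAA after its promoter had been read. Alternatives covered the arrays fitted, array weights, normalization, probe set choice, dim genes, a pseudocount of 16, the threshold, and runs that left out 1 or 3 arrays.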

Additional observations from a re-analysis of the deposited data

Results flagged for a closer look

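Among the 27 sets of 4 arrays (9 genes in 3 groups), 2 held an array whose gap to its nearest neighbour exceeded Dixon's 95% critical share of the group's range, and chance alone would flag some of 27 sets. Timp4 was at 9.78 in R172K replicate 4, a gap of 0.913 of the range. Mmp19 was at 6.02 in control replicate 4, a gap of 0.927 of the range, and the other 3 control arrays lay between 6.25 and 6.27.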

How the results depend on the processing

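Timp1 and Mmp14 kept their R172K calls under all 23 alternatives, at 2.99 to 4.36 and 1.18 to 1.74. In R140Q hearts none of the 9 genes was called in any alternative (limma), except that 2 were with only the groups compared (1342 genes in all, against 439). Array weights gave 1651 genes in that contrast. In R172K hearts the main fit called 4 genes, 2 at an adjusted p under 0.01 (773 genes against 2593), and 2 to 5 were called with 1 array left out. With array weights there were 5 (4491 genes). Over the alternatives that gave a value, the R172K call of Mmp2 held in 19 of 23 and that of Mmp19 in 14 of 22. Between the mutants none was called, but 4 were with array weights (1774 genes against 296), 4 without control 3, R172K 3 and R140Q 4 together (806 genes), and 0 to 4 with 1 array left out. Over those runs the genes called in all were 100 to 1015, 1327 to 4157 and 1 to 1577 in the 3 contrasts. Only the groups compared gave 9 genes between the mutants, every probe set fitted gave 271 and 5 in the R140Q contrast and between the mutants, and the trend with robust fitting 179 between the mutants.

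Replicate numbers are shared by the groups. Deviations of same-numbered arrays correlated at -0.336 to 0.152 and those of different-numbered arrays at -0.210 to 0.279. These values showed no pairing by number, although they cannot exclude a shared origin of same-numbered arrays. A replicate block gave 0, 4 and 0 of the 9 genes (196, 2014 and 11 genes in all).

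Only genes with no call changed sign. In R140Q hearts Timp2 was 0.025 with array weights, and without the 3 arrays together Timp2 was 0.12 and Mmp3 0.0048. In R172K hearts those arrays' removal gave -0.19 for Timp4 and -0.020 for Mmp9, and between the mutants -0.079 for Timp3. With 1 array left out, the R140Q differences ran from -0.10 to 0.11 (Timp2), -0.30 to 0.035 (Timp4) and -0.17 to 0.033 (Mmp3). The R172K differences ran from -0.025 to 0.20 (Timp2), -0.14 to 0.37 (Timp4) and -0.022 to 0.14 (Mmp9). Between the mutants they ran from -0.012 to 0.20 (Timp2), -0.057 to 0.14 (Timp3) and -0.11 to 0.051 (Mmp9). The cause of these changes was not tested.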
